A study of Mus musculus with 8 samples.

Results

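The genes described here were 10 Wnt ligands, chosen by gene name from a table of 54532 genes: Wnt6, Wnt4, Wnt5a, Wnt5b, Wnt7a, Wnt7b, Wnt9a, Wnt10a, Wnt10b and Wnt11. They made up 10 of the 19 Wnt ligand genes in the table, and Wnt6 was selected on its higher level in the treated tumors, so the values of the same contrast are given as a description, with no p-value for any member. The samples were 4T1 tumors, a mouse triple-negative mammary carcinoma line that the study used as a luciferase-carrying derivative, grown under the skin of immunocompetent female BALB/cJ mice that were 6 weeks old when injected. The control group was 4 tumors of mice given saline (PBS), and the treated group was 4 tumors of mice given mAb-DXd/IMQ, spelled HumCD276-Dxd/IMQ in the labels. This agent is a humanized antibody to CD276 (B7-H3) that carries deruxtecan, a topoisomerase I inhibitor, and an imidazoquinoline agonist of the Toll-like receptors TLR7 and TLR8. It was given into the tail vein at 16 mg per kg every 4 days for 5 courses, and tumors were taken at the study endpoint. Tumor size was not used here, and a part of tumor size in a difference cannot be told apart from treatment. Poly-A RNA of whole tumors was sequenced, and total counts were 49398150, 45019927, 56388627 and 69582375 in saline tumors 1 to 4 and 51625237, 46196237, 42965317 and 34591912 in mAb-DXd/IMQ tumors 1 to 4.

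Wnt ligands are secreted, lipid-modified glycoproteins that bind Frizzled receptors on nearby cells. With an LRP5 or LRP6 coreceptor they stabilize beta-catenin, which enters the nucleus and works with TCF/LEF factors, and with ROR or RYK receptors they act on cell polarity and movement without beta-catenin. In the mammary gland and the skin, Wnt signals take part in the formation of epithelial buds, ducts and hair follicles, and overexpression of some ligands in mouse mammary tissue causes tumors.

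Wnt6, a ligand expressed in embryonic surface ectoderm and other epithelia, was counted 24, 14, 25 and 51 times in saline tumors 1 to 4. In mAb-DXd/IMQ tumors 1 to 4 its counts were 152, 177, 202 and 210. As CPM, which are counts divided by library sizes scaled by the trimmed mean of M values (TMM), its levels were 0.487, 0.316, 0.448 and 0.746 in the saline tumors and 3.14, 3.79, 4.41 and 5.90 in the mAb-DXd/IMQ tumors. Every treated tumor was above every saline tumor, which is given as a description, since Wnt6 was chosen for its rise in this contrast. The log2 fold change, treated over saline, was 3.09 with an approximate standard error of 0.34, and it lay between 2.91 and 3.36 when each tumor was left out in turn. Wnt6 (ENSMUSG00000033227) lies on chromosome 1 at 74771892 to 74785322 on the plus strand in the coordinates of the table, which are those of GRCm38. In bulk tumor RNA, more cells that express a gene and more RNA of that gene per cell cannot be told apart.

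The neighbour of Wnt6 on the same strand is Wnt10a, which begins 6194 bases after the end of Wnt6. Wnt10a, a ligand of ectodermal appendages such as hair and teeth, had levels of 99.97, 38.4, 65.7 and 52.6 CPM in saline tumors 1 to 4. In mAb-DXd/IMQ tumors 1 to 4 its levels were 70.2, 72.5, 53.1 and 56.6 CPM. The treated tumors lay inside the range of the saline tumors, and the log2 fold change was -0.024 (SE 0.25), with a sign that turned under upper-quartile scaling and a range of -0.206 to 0.270 without 1 tumor. Of the other tested genes within 150000 bases of Wnt6, Ttll4 had a log2 fold change of 0.04, Stk36 of -0.32 and Cyp27a1 of -0.75, and none was called. The opposite-strand gene Gm29539 overlaps the span of Wnt6 but shares 0 exon bases with it, and its mean levels were 0.0803 CPM in saline and 0.0829 CPM in mAb-DXd/IMQ tumors.

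The promoters of Wnt6 and Wnt10b are shown because these were the members with the highest fold changes. They are the 250 bases before each gene's start, from RefSeq on GRCm38.p6, read 5′ to 3′ on the gene's strand, with CG dinucleotides in capitals. The Wnt6 window is chr1:74771642-74771891 on the plus strand and the Wnt10b window is chr15:98778151-98778400 on the minus strand, and 0 annotated GENCODE M21 exons overlap either.
Wnt6: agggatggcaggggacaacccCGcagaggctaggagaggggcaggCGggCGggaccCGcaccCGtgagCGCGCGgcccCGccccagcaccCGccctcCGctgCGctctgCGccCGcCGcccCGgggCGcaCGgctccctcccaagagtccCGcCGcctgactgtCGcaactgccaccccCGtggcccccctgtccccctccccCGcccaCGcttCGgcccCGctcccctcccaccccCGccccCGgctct
Wnt10b: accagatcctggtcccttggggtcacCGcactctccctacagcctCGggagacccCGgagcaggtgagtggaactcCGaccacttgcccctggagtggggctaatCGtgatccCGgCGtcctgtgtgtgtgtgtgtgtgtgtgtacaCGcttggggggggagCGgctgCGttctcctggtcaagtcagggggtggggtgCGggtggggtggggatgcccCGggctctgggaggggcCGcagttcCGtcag
The Wnt6 window held 28 CG dinucleotides and 79.6% G or C, and that of Wnt10b held 14 and 66.8%. Over all 32851 promoter windows of the same length the medians were 6 CG dinucleotides and 52.4% G or C, and 7.61% of windows held at least as many CG dinucleotides as that of Wnt6. Windows of other members held more, with 48 in Wnt9a, 44 in Wnt4 and, at their richest window, 37 in Wnt11, 35 in Wnt5b and 34 in Wnt7a. The letters CTTTGA, the core of TCF/LEF motifs, were searched on both strands and were in neither printed window, against 13.8% of all windows. Neither held the AP-1 letters TGANTCA, searched in the same way and present in 6.75% of all windows. Promoter entries matched 7 of the 10 members, with 10 windows in all, of which 2 held CTTTGA (1 each of Wnt5b and Wnt11) and 1 held TGANTCA (Wnt5b). There was no entry for Wnt5a, Wnt7b or Wnt10a.

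Wnt10b, a ligand known for holding back fat cell formation and for causing mammary tumors when overexpressed in mice, had the next highest fold change. Its levels were 2.66, 5.57, 2.67 and 2.39 CPM in saline tumors 1 to 4 and 5.40, 9.06, 5.22 and 11.7 CPM in mAb-DXd/IMQ tumors 1 to 4. The second saline tumor was the only one of its group to reach the treated range, where it lay above the first and the third treated tumors. The log2 fold change was 1.24 (SE 0.35), and it lay between 0.991 and 1.61 without 1 tumor, highest without the second saline tumor. Wnt1, which lies 11707 bases from Wnt10b on the opposite strand, had group means of 0.340 CPM in saline and 0.451 CPM in mAb-DXd/IMQ tumors.

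Wnt7b and Wnt7a are epithelial ligands that can signal through beta-catenin. Wnt7b levels were 255, 210, 232 and 225 CPM in saline tumors 1 to 4 and 195, 193, 212 and 167 CPM in mAb-DXd/IMQ tumors 1 to 4. Only the lowest saline tumor and the highest treated tumor overlapped, and the log2 fold change was -0.27 (SE 0.11), between -0.32 and -0.20 when each tumor was left out in turn. Wnt7a levels were 14.2, 2.12, 8.76 and 9.30 CPM in saline tumors 1 to 4 and 13.1, 9.25, 9.15 and 6.55 CPM in mAb-DXd/IMQ tumors 1 to 4. The second saline tumor was the lowest of all for Wnt7a and also for Wnt10a, and the groups overlapped. The log2 fold change of Wnt7a was 0.15 (SE 0.44), and it lay between -0.176 and 0.495 without 1 tumor, lowest without the second saline tumor.

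**Figure D1:**
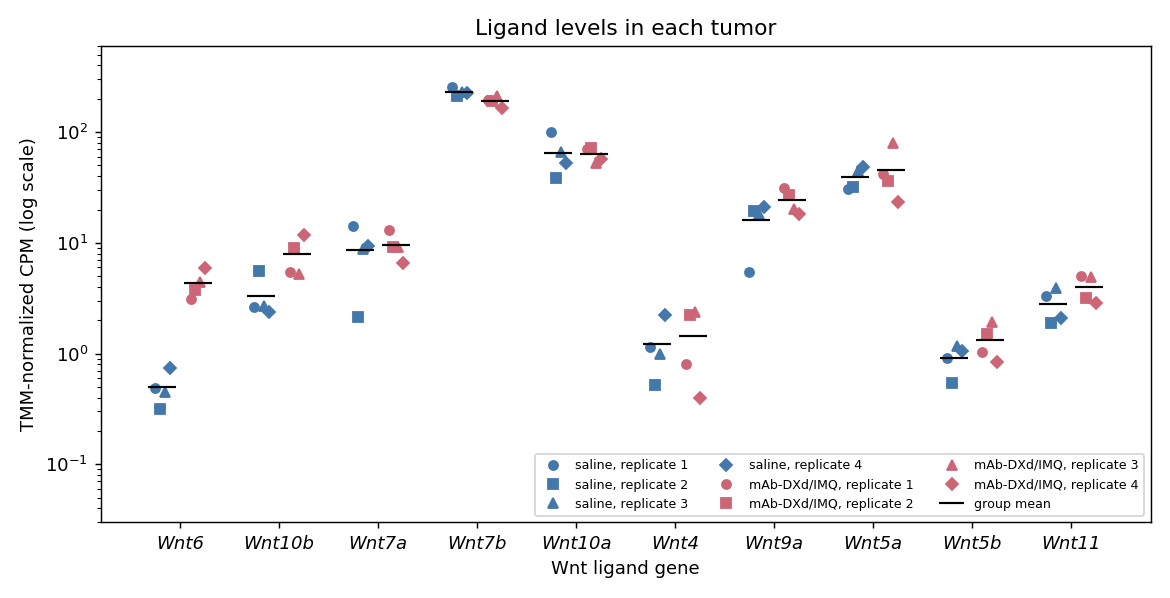
TMM-normalized CPM of the 10 Wnt ligands in each tumor on a log axis, with 4 saline tumors and 4 mAb-DXd/IMQ tumors per gene, symbols by replicate number and a bar at each group mean. The treated tumors lie above all saline tumors for Wnt6, from 3.14 to 5.90 against 0.316 to 0.746 CPM, and the groups overlap for the other 9 ligands.

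Wnt5a, which acts mainly through ROR2 without beta-catenin and is made largely by stromal cells in many tissues, had levels of 30.5, 31.9, 44.9 and 48.7 CPM in saline tumors 1 to 4. In mAb-DXd/IMQ tumors 1 to 4 its levels were 41.5, 36.0, 79.7 and 23.2 CPM, so the highest and the lowest tumor were both treated ones. The log2 fold change was 0.21 (SE 0.32), and it lay between -0.217 and 0.431 without 1 tumor, lowest without the third treated tumor. Wnt5b, its close relative, was between 0.542 and 1.16 CPM in saline tumors and between 0.843 and 1.94 CPM in mAb-DXd/IMQ tumors, and Wnt11, a ligand of cell movement in the embryo, was between 1.90 and 3.94 and between 2.84 and 5.03 CPM. The groups overlapped for both, with log2 fold changes of 0.53 (SE 0.37) for Wnt5b and 0.50 (SE 0.31) for Wnt11. Without 1 tumor they lay between 0.290 and 0.700 for Wnt5b, lowest without the third treated tumor, and between 0.355 and 0.710 for Wnt11.

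Wnt9a, a ligand of joints and blood stem cell development, had levels of 5.41, 19.6, 18.4 and 20.9 CPM in saline tumors 1 to 4. In mAb-DXd/IMQ tumors 1 to 4 its levels were 31.0, 27.1, 20.3 and 18.3 CPM. The first saline tumor was far below the other seven, and the log2 fold change of 0.59 (SE 0.35) was 0.298 without it and up to 0.745 without another tumor. Wnt4, which the mammary epithelium needs for side branching, was between 0.519 and 2.21 CPM in saline tumors and between 0.394 and 2.36 CPM in mAb-DXd/IMQ tumors. The groups overlapped over nearly their whole range, and the log2 fold change of Wnt4 was 0.24 (SE 0.58), between -0.0928 and 0.711 without 1 tumor.

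All 10 members passed the filter on low counts. Among them 8 had a positive and 2 a negative log2 fold change under TMM scaling, with a median of 0.37, beside a median of 0.022 over the 18511 genes tested. The treated tumors lay above all saline tumors for 1 member and below them for 0, where 5.97% and 7.10% of all genes tested had such separate groups. One call rule was used for all genes, edgeR's quasi-likelihood test with a Benjamini-Hochberg adjusted p below 0.05 and an absolute log2 fold change above 0.58. Among the members 1, Wnt6, was called higher and 0 lower, where 0.546% and 0.519% of all genes tested were called. All of these member counts and the member median include Wnt6, which was chosen on this contrast, so nothing is read from them.

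Levels of different ligands were compared per kilobase of the gene length in the table. In saline tumors Wnt7b led with 47.1 ± 3.79 CPM per kilobase (SD, n = 4), followed beyond their spread by Wnt10a with 26.0 ± 10.7. Next came Wnt5a with 4.99 ± 1.17, Wnt9a with 4.83 ± 2.16 and Wnt7a with 2.71 ± 1.57, and each of these neighbours differed by less than the larger of their SDs. Wnt10b (0.977 ± 0.443) and Wnt11 (0.679 ± 0.237) were lower and again did not differ beyond their spread, and Wnt5b (0.346 ± 0.102), Wnt4 (0.290 ± 0.170) and Wnt6 (0.228 ± 0.0822) closed the order without gaps beyond their spread. In mAb-DXd/IMQ tumors Wnt7b (39.1 ± 3.82) and Wnt10a (25.6 ± 3.92) led as well. Wnt9a (7.26 ± 1.77), Wnt5a (5.77 ± 3.11), Wnt7a (3.00 ± 0.856), Wnt10b (2.31 ± 0.920) and Wnt6 (1.97 ± 0.540) followed, with no neighbours apart beyond their spread, and Wnt11 (0.962 ± 0.277) came next, beyond the spread of Wnt6. Wnt5b (0.501 ± 0.186) and Wnt4 (0.345 ± 0.237) were the lowest and did not differ beyond their spread. Wnt6 thus stood at place 10 of 10 in saline and at place 7 of 10 in mAb-DXd/IMQ tumors.

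**Figure D2:**
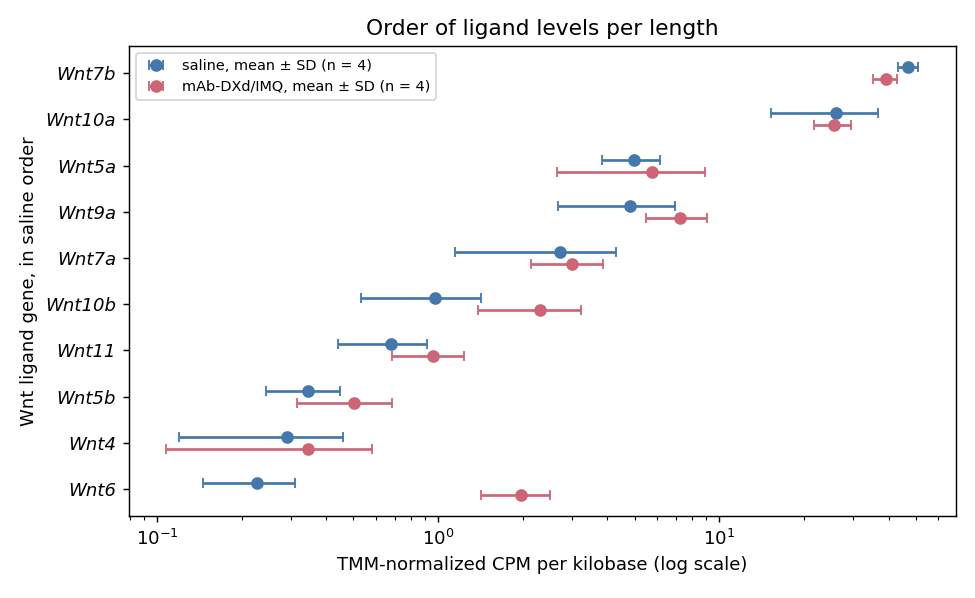
Mean TMM-normalized CPM per kilobase of gene length on a log axis for the 10 ligands, in the order of the saline tumors, with bars of 1 SD over 4 tumors per group. Wnt7b and Wnt10a lead in both groups, and Wnt6 is at 0.228 in saline and 1.97 in mAb-DXd/IMQ tumors.

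Summed over all 19 Wnt ligand genes, the level was 90.3 ± 13.7 CPM per kilobase in saline and 89.1 ± 8.55 in mAb-DXd/IMQ tumors (SD, n = 4 each). Wnt7b made up 52.6% ± 4.07 of that sum in saline and 43.9% ± 2.07 in mAb-DXd/IMQ tumors. The share of Wnt6 was 0.253% ± 0.0918 in saline and 2.27% ± 0.880 in mAb-DXd/IMQ tumors, so it was a small part of the ligand RNA in both groups. The 10 members together held between 96.7% and 98.5% of the sum in each of the 8 tumors.

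Of the 9 ligands outside the 10 members, 3 passed the filter on low counts, Wnt1, Wnt2 and Wnt2b, and none of these was called. Wnt2b was the most abundant of them, at 1.69 ± 0.376 CPM per kilobase in saline and 1.40 ± 0.621 CPM per kilobase in mAb-DXd/IMQ tumors, and Wnt2 had 0.271 ± 0.213 and 0.469 ± 0.135 CPM per kilobase (SD, n = 4). Wnt3, an epithelial ligand of skin and hair follicle, was counted 103 times in the second mAb-DXd/IMQ tumor, 6 times in the first saline tumor and 0 times in the other six. Wnt8a had 0 counts in all 8 tumors, a count that allows up to 0.0439 to 0.0843 CPM per tumor at 3 counts.

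Over all genes tested, 197 of 18511 (1.06%) were called, 101 higher and 96 lower, and 145 higher and 73 lower under upper-quartile scaling. The number was 203, 111, 10 and 11 without saline tumors 1, 2, 3 and 4 in turn, and 190, 76, 88 and 12 without mAb-DXd/IMQ tumors 1, 2, 3 and 4, with fewer degrees of freedom in each of these fits. Of the 89 pathway genes outside the 10 members, 72 were tested and 1 was called (1.39%), none of them higher. Their median log2 fold change was -0.07, with 30 positive and 42 negative values, beside a median of 0.02 and 52.6% positive values over all genes tested. Log2 fold change fell with gene length over all genes tested (Spearman rho -0.212). The part of gene length in the signs of the pathway lists was not tested.

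The called gene was Ror1, a receptor tyrosine kinase that binds Wnt5a. Its levels were 11.1, 6.41, 6.16 and 11.1 CPM in saline tumors 1 to 4 and 3.55, 3.04, 2.99 and 3.63 CPM in mAb-DXd/IMQ tumors 1 to 4. All 4 treated tumors were below all saline tumors, and the log2 fold change was -1.40 (SE 0.25, edgeR adjusted p = 0.0280). The call was lost without saline tumor 3 (edgeR adjusted p = 0.0657) or 4 (0.116), without mAb-DXd/IMQ tumor 2 (0.0696), 3 (0.0601) or 4 (0.0899), and with the replicate number as a block (0.0866). The log2 fold change itself lay between -1.53 and -1.25 without 1 tumor and was -1.35 with the block. The related receptor Ror2 had levels of 6.17 CPM in saline and 7.51 CPM in mAb-DXd/IMQ tumors, with a log2 fold change of 0.28 (SE 0.31, edgeR adjusted p = 0.672).

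Of the 16 Wnt receptors and coreceptors, all were tested and 1 (Ror1) was called, with 11 positive and 5 negative log2 fold changes. The beta-catenin coreceptor Lrp5 was at 371, 331, 317 and 342 CPM in saline tumors 1 to 4 and at 228, 262, 187 and 263 CPM in mAb-DXd/IMQ tumors 1 to 4. Its relative Lrp6 was at 136, 133, 115 and 126 CPM in saline and at 76.9, 95.4, 100.1 and 98.3 CPM in mAb-DXd/IMQ tumors. For both the groups did not overlap, but neither was called, with log2 fold changes of -0.53 (SE 0.13) for Lrp5 and -0.46 (SE 0.11) for Lrp6 and an edgeR adjusted p of 0.0668 each. The Frizzled receptor Fzd6 was at 131 CPM in both groups, with a log2 fold change of 0.0053 (SE 0.10), and Ptk7, a receptor of planar cell polarity, was at 167 and 189 CPM. The Frizzled receptor Fzd5, named after its values were seen, was at 17.2 ± 2.68 CPM in saline and 24.5 ± 1.95 CPM in mAb-DXd/IMQ tumors (SD, n = 4). Its treated tumors were all above the saline tumors, and it was not called, with a log2 fold change of 0.51 (SE 0.14, edgeR adjusted p = 0.0916).

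Of the 3 genes of acylation, secretion and deacylation none was called, and all 3 log2 fold changes were negative. Porcn, which adds the lipid to Wnt proteins, was between 20.7 and 43.4 CPM in saline and between 12.3 and 29.4 CPM in mAb-DXd/IMQ tumors, with a log2 fold change of -0.58 (SE 0.28, edgeR adjusted p = 0.299). Wls, the carrier that brings Wnt proteins to the cell surface, was between 342 and 405 and between 235 and 349 CPM, with a log2 fold change of -0.34 (SE 0.13, edgeR adjusted p = 0.211). The groups overlapped for both genes.

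R-spondins bind LGR receptors and thereby keep Frizzled receptors at the surface, which the ligases RNF43 and ZNRF3 otherwise remove. Of these 9 genes 7 were tested and none was called, with 1 positive and 6 negative log2 fold changes. Lgr6 was at 96.7, 181, 110 and 162 CPM in saline tumors 1 to 4 and at 55.3, 83.2, 76.7 and 76.3 CPM in mAb-DXd/IMQ tumors 1 to 4. The groups did not overlap, with a log2 fold change of -0.92 (SE 0.20, edgeR adjusted p = 0.0536). Znrf3 was at 27.5 CPM in saline and 30.3 CPM in mAb-DXd/IMQ tumors.

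Of the 15 secreted and membrane inhibitors 8 were tested and none was called, with 5 positive and 3 negative log2 fold changes. The secreted Frizzled-related proteins Sfrp1 and Sfrp2, which bind Wnt ligands outside the cell, had log2 fold changes of -0.28 (SE 0.22) and -0.90 (SE 0.44), with edgeR adjusted p-values of 0.542 and 0.300. Dkk3, of the Dickkopf family, was at 40.3 and 35.1 CPM in saline and mAb-DXd/IMQ tumors, and the membrane inhibitor Apcdd1 at 24.5 ± 5.26 and 34.6 ± 21.2 CPM (SD, n = 4). The groups of Apcdd1 overlapped, and mAb-DXd/IMQ tumors 1 to 4 were at 28.0, 17.1, 65.5 and 27.8 CPM. Sost had 0 counts in all 8 tumors.

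Of the 16 genes of the destruction complex and the nuclear partners of beta-catenin, all were tested and none was called. Their log2 fold changes were positive for 2 and negative for 14, and the part of gene length in these signs was not tested. Ctnnb1, which encodes beta-catenin, was between 614 and 725 CPM in saline and between 477 and 622 CPM in mAb-DXd/IMQ tumors, with a log2 fold change of -0.32 (SE 0.13, edgeR adjusted p = 0.214). Csnk1a1, a kinase that marks beta-catenin for destruction, was at 377 and 354 CPM.

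Of the 9 feedback and target genes of beta-catenin 8 were tested and none was called, with 4 positive and 4 negative log2 fold changes. Axin2, a target in most tissues and a part of the negative feedback, was between 2.32 and 4.12 CPM in saline and between 2.73 and 6.55 CPM in mAb-DXd/IMQ tumors, with a log2 fold change of 0.28 (SE 0.31, edgeR adjusted p = 0.666). Nkd1, a further feedback inhibitor, and Lef1, a partner of beta-catenin, were low, with log2 fold changes of -0.70 (SE 0.48) and -0.53 (SE 0.48) and edgeR adjusted p-values of 0.464 and 0.594. Ccnd1, which encodes cyclin D1, was between 694 and 1061 CPM in saline and between 519 and 668 CPM in mAb-DXd/IMQ tumors, with no overlap and a log2 fold change of -0.53 (SE 0.16, edgeR adjusted p = 0.110). Tcf7, a partner of beta-catenin, and the receptor Tnfrsf19, both named after their values were seen, were higher in every treated tumor than in every saline tumor and were not called, with log2 fold changes of 0.69 (SE 0.23) and 0.56 (SE 0.18) and edgeR adjusted p-values of 0.142 and 0.137. Myc was at 135 and 160 CPM in saline and mAb-DXd/IMQ tumors. Of the 12 planar cell polarity genes 11 were tested and none was called, with 5 positive and 6 negative log2 fold changes, among them Vangl1 at 60.5 and 58.9 CPM and Daam1 at 33.8 and 36.6 CPM. For 3 of the 72 tested pathway genes (Fzd5, Tcf7 and Tnfrsf19) all treated tumors were above, and for 8 (Ror1, Lrp5, Lrp6, Lgr6, Gsk3a, Gsk3b, Tcf7l2 and Ccnd1) below, all saline tumors, where 5.97% and 7.10% of all genes tested had such groups.

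**Figure D3:**
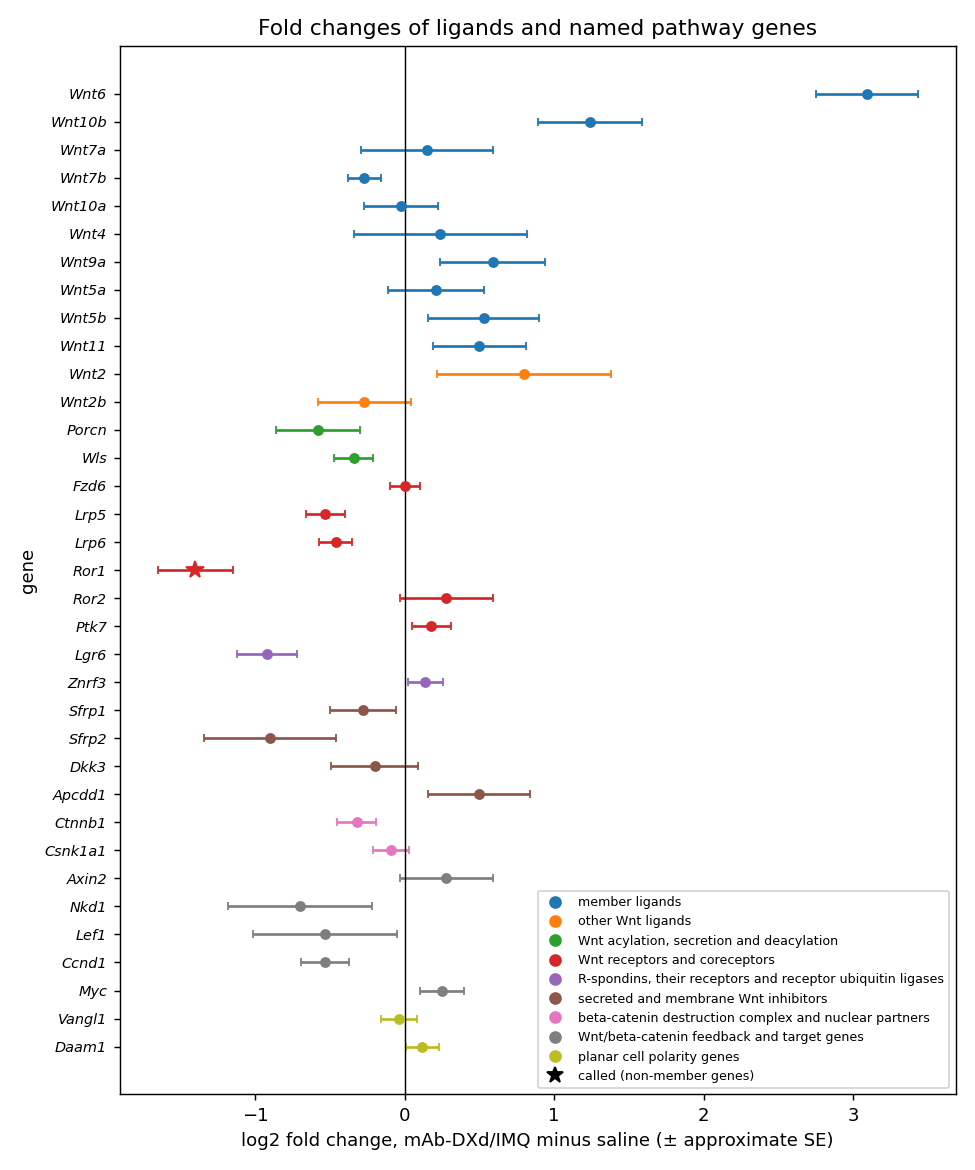
Log2 fold changes, mAb-DXd/IMQ minus saline, with bars of 1 approximate SE for the 10 ligands and the named pathway genes, colored by list. Wnt6 is at 3.09 and Wnt10b at 1.24, and Ror1 at -1.40 is the pathway gene that was called.

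The markers of 9 cell types were summed in each tumor, and some of these sums were for the most part 1 gene. The simple epithelial markers, which the 4T1 carcinoma should carry, were all detected (8 of 8, most abundant Krt18), with sums of 2874, 2108, 2909 and 2645 CPM in saline tumors 1 to 4 and 4161, 3210, 2402 and 2456 CPM in mAb-DXd/IMQ tumors 1 to 4. The epidermal keratinocyte markers (12 of 12 detected in at least 1 tumor) had 75.1% of their sum from Krt14. They summed to 225, 42.2, 159 and 113 CPM in saline and to 226, 559, 229 and 113 CPM in mAb-DXd/IMQ tumors. In mAb-DXd/IMQ tumors 1 and 3 Krt14 was at 208 and 216 CPM, but Krt5 was at 0.206 and 1.05 CPM. The sums therefore do not measure epidermal RNA in every tumor. The second treated tumor, which held nearly all Wnt3 counts, was the highest for these markers, with Krt5 at 112 CPM against 22.1 CPM or less in the others. The Wnt6 level of that tumor was 3.79 CPM, and the part of epidermal cells in the level of Wnt6 was not tested. The hair follicle list (7 of 10 detected, with Krt71, Krt35 and Dsg4 at 0) gave no measure of hair follicle RNA, since Padi3 made up 97.1% of its sum and its hair keratins were at 0.117 CPM or less in every tumor.

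The fibroblast markers (9 of 9 detected, most abundant Col1a1) summed to 2807, 3797, 6629 and 7082 CPM in saline tumors 1 to 4 and to 5505, 4237, 7524 and 2832 CPM in mAb-DXd/IMQ tumors 1 to 4. The sums were nearly all collagen RNA, with Col1a1, Col1a2 and Col3a1 at 3971, 2058 and 1344 CPM in the third mAb-DXd/IMQ tumor, where the sum and Wnt5a were highest. Other genes of the list differed from each other: Pdgfra was at 86.4 to 105.8 CPM in saline and at 61.2 to 75.7 CPM in mAb-DXd/IMQ tumors, with 62.7 CPM in that tumor, while Fap was at 4.74 to 7.58 CPM in saline and at 8.29 to 16.03 CPM in mAb-DXd/IMQ tumors and was highest in that tumor. Wnt5a followed the collagen-dominated sums over the 8 tumors, which share their dissection and scaling, with a Pearson correlation of log2 values of 0.897 and a Spearman correlation of 0.976. The Pearson correlation was 0.853 without the 2 tumors farthest from the median of the marker sum and 0.901 after each group mean was subtracted. This was 1 of 90 pairs of a member and a marker list, of which 5 had an absolute correlation of at least 0.8, and whether fibroblasts were the source of Wnt5a was not tested.

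The leukocyte markers (9 of 9 detected, with 71.2% of the sum from Lyz2) summed to 784, 4427, 1870 and 2337 CPM in saline and to 2456, 1712, 2507 and 1823 CPM in mAb-DXd/IMQ tumors. S100a8, of the same list, was at 20.9 to 60.9 CPM in saline and at 6.25 to 18.4 CPM in mAb-DXd/IMQ tumors and was highest in the first saline tumor, where the sum was lowest, so the sum is not a measure of all leukocytes. Wnt10a ran against these Lyz2-dominated sums, with a Pearson correlation of -0.915 over 8 tumors that rested on the 2 farthest tumors, since it was -0.429 without them, and it was -0.923 after group means were subtracted. The endothelial markers (7 of 7 detected, most abundant Pecam1) summed to 89.5, 218, 155 and 166 CPM in saline and to 216, 193, 215 and 180 CPM in mAb-DXd/IMQ tumors. Wnt9a was low in the same first saline tumor, with a correlation of 0.911 that was 0.286 without the 2 farthest tumors and 0.878 after group means were subtracted. The skeletal muscle markers (8 of 8 detected, most abundant Acta1) summed to between 62.2 and 503 CPM, lowest in the second saline tumor as Wnt7a was, with a correlation of 0.812 with Wnt7a that was 0.572 without the 2 farthest tumors and 0.834 after group means were subtracted. The adipocyte markers (7 of 7 detected, with 74.8% of the sum from Fabp4) summed to between 16.8 and 43.1 CPM.

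The Schwann cell markers (5 of 5 detected, most abundant Mbp) were the list whose sums did not overlap between groups, with 51.0, 53.1, 52.4 and 53.7 CPM in saline and 70.6, 70.7, 63.2 and 63.8 CPM in mAb-DXd/IMQ tumors. The higher sums came from Ngfr, also present in other cell types, which was at 2.09, 3.30, 3.30 and 7.10 CPM in saline tumors 1 to 4 and at 28.9, 25.3, 29.9 and 10.8 CPM in mAb-DXd/IMQ tumors 1 to 4. Mbp was between 41.5 and 45.3 CPM in saline and between 28.8 and 39.4 CPM in mAb-DXd/IMQ tumors, and Sox10, a defining marker, was at 0.225 CPM or less in all tumors. The correlation of the summed markers with Wnt6 was 0.891 over 8 tumors, 0.970 without the 2 farthest tumors and -0.433 after group means were subtracted, and the part of these cells in the level of Wnt6 was not tested.

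**Figure D4:**
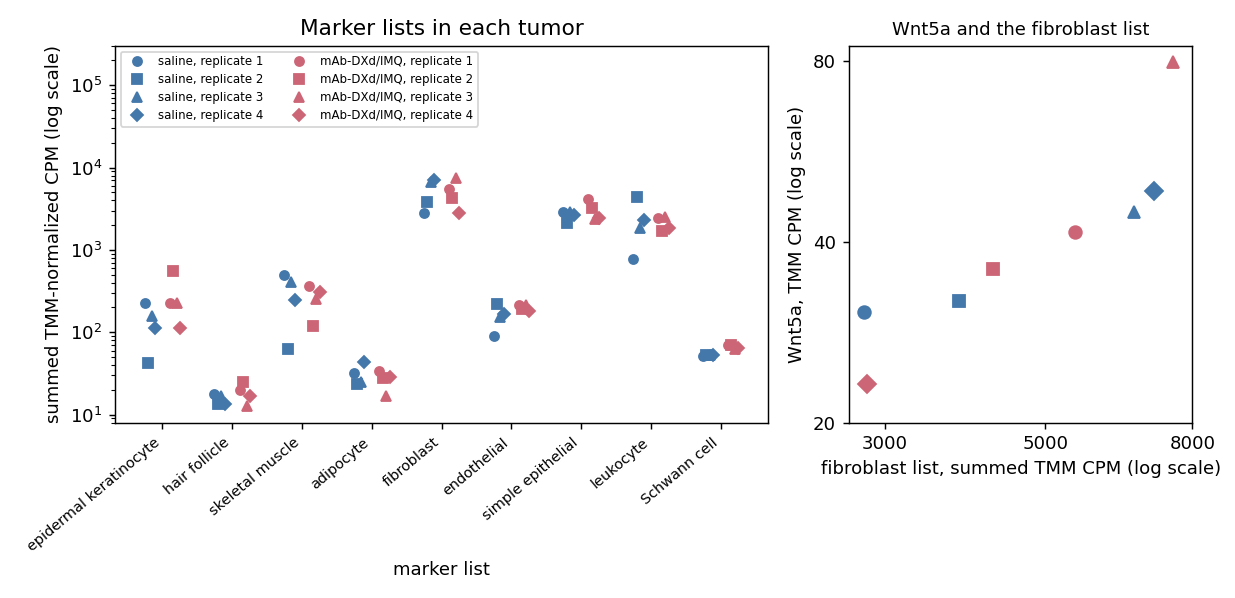
Left, summed TMM-normalized CPM of 9 marker lists in each tumor on a log axis, with symbols by replicate number. Right, Wnt5a against the fibroblast sum, nearly all collagen RNA, on log axes, where Wnt5a runs from 23.2 to 79.7 CPM and the fibroblast sum from 2807 to 7524 CPM.

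Among 14645 genes with a mean of at least 1 CPM, the 5 whose log2 CPM correlated best with that of Wnt6 over the 8 tumors were Terf1 (Pearson 0.987), Cd55 (0.982), AU018091 (0.973), Gzmc (0.970) and Atp1b1 (0.963). These correlations hold the difference between groups on which Wnt6 was chosen. Gzmc, a granzyme of cytotoxic lymphocytes, had mean levels of 15.95 CPM in saline and 102 CPM in mAb-DXd/IMQ tumors, and Cd55, a membrane inhibitor of complement, 1.46 and 5.10 CPM. After group means were subtracted the 5 best were Gm16907 (0.964), Gm16124 (0.954), Gm26582 (0.948), 6820431F20Rik (0.942) and Ncr1 (0.941). These are the highest of 14645 values over 8 tumors, a ranking with no test. Of the other 9 members, Wnt7b (-0.765) and Wnt10b (0.739) had the largest absolute correlations with Wnt6 over the 8 tumors, and these were -0.138 and -0.160 after group means were subtracted.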

How the data were processed

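The deposited table held raw counts per gene made by the authors from poly-A libraries on an Illumina HiSeq X instrument. The submitters' processing notes name HISAT2, HISAT and TopHat2 and the build mm39, but 53499 of 54409 genes shared with GENCODE M21 (98.3%) had the start and end of GRCm38. The counting tool was not given in the sources used here, nor whether the libraries kept strand, so Wnt5a and Wnt7b, which share 4.58% and 6.61% of their exon bases with the opposite-strand genes Gm2670 (0.492 and 0.386 CPM in saline and mAb-DXd/IMQ tumors) and AU022754 (2.93 and 2.70 CPM), may include their reads. Wnt11 shares 8.80% with Gm8398, which had 0 counts. Counts were tested with edgeR 4.0.16 (R 4.3.3) by the quasi-likelihood F-test after TMM scaling and the default low-count filter (minimum count 10), which kept 18511 genes. Genes were called at a Benjamini-Hochberg adjusted p below 0.05 and an absolute log2 fold change above 0.58. DESeq2 1.42.0, other scalings and filters, a gene length correction, a replicate block and leaving out each tumor were alternatives, and the fit was tested on simulated data. CPM use the TMM-scaled library sizes, and log2 CPM a prior count of 2. Named genes were the members, called pathway genes, the 2 most abundant tested genes of each pathway list, a preset group of pathway genes, the most abundant gene of each marker list and the 5 genes most like Wnt6. Krt5, Ngfr, Sox10, Fzd5, Tcf7, Tnfrsf19, Tcf7l2, Gsk3a, Gsk3b, Col1a2, Col3a1, Pdgfra, Fap and S100a8, the neighbours of Wnt6 and the ligands outside these rules were named after their values were seen. The members and lists were chosen with earlier results of these data known. Mice were separate animals.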

Additional observations from a re-analysis of the deposited data

Results flagged for a closer look

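In groups of 4 tumors, 9 values in 104 groups compared stood apart from the other 3 of their group by nearly the whole range. The rule was set at about 5% of groups by chance for values that vary without ties, a share that does not hold for Wnt3, Wnt3a and Wnt9b, where any gene counted in only 1 tumor of a group meets it. Wnt9a was at 5.41 CPM in the first saline tumor against 18.4 to 20.9 CPM in the others. Wnt10b was at 5.57 CPM in the second saline tumor against 2.39 to 2.67 CPM. The sum of the 19 ligands was 76.3 CPM per kilobase in the fourth mAb-DXd/IMQ tumor against 93.0 to 93.7 in the others. Wnt3 was at 2.21 CPM in the second mAb-DXd/IMQ tumor and at 0.122 CPM in the first saline tumor, with 0 in the rest of each group. Wnt3a was at 0.0214 CPM (1 count) and 0.0608 CPM (3 counts) in the same 2 tumors, with 0 in the rest. Wnt9b was at 0.0896 CPM (5 counts) in the third saline tumor and at 0.124 CPM (6 counts) in the first mAb-DXd/IMQ tumor, with 0 in the rest.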

How the results depend on the processing

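The 197 calls (101 higher, 96 lower) were 358 (167, 191) with no filter on low counts, 787 (438, 349) with DESeq2, 116 (59, 57) with the gene length correction and 14 (10, 4) with the replicate block. Leaving out 1 tumor gave 10 to 203 calls, 9 to 90 higher and 1 to 118 lower. The pathway call (Ror1) became 2 genes with no filter (Ror1, Lgr6), 5 with DESeq2 (Notum, Ror1, Lgr6, Bcl9l, Tcf7), 0 with the replicate block, and 0 to 2 without 1 tumor. The cause was not tested, except that leaving out tumors or adding a block leaves fewer degrees of freedom. Each number named a different mouse in either group. Deviations from group means of tumors with equal numbers correlated at -0.170, -0.0546, 0.0794 and -0.0672. These values cannot exclude a processing step shared by tumors with equal numbers, which was not tested. Log2 fold change correlated with gene length at a Spearman rho of -0.212 over genes tested, and -0.0309 after the correction. Over 8 other settings the log2 fold change of Wnt6 was 2.97 to 3.14 and that of Wnt10b 1.16 to 1.30, and without 1 tumor Wnt10b was 0.99 to 1.61. The sign turned in at least 1 setting for Wnt4, Wnt5a, Wnt7a and Wnt10a. Counts of 14 to 51 limit the precision of Wnt6 in saline tumors.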

Other observations

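Wnt16, a ligand of bone and skin outside the 10 members, was counted 4, 6, 1 and 4 times in saline tumors 1 to 4 and 8, 21, 4 and 13 times in mAb-DXd/IMQ tumors 1 to 4. It did not pass the filter on low counts and was not tested, and as CPM the groups overlapped, with 0.0179 to 0.135 in saline and 0.0874 to 0.450 in mAb-DXd/IMQ tumors.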
